A study of Drosophila melanogaster with 7 samples.

Results

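Transcripts of the genes that make, recycle, break down and sense acetylcholine outside the nicotinic receptors were examined in dissected brains of Drosophila melanogaster. The genes were taken by name: the choline acetyltransferase gene ChAT, the vesicular acetylcholine transporter gene VAChT, the choline transporter gene ChT, the acetylcholinesterase gene Ace, and the muscarinic receptor genes mAChR-A and mAChR-B. Of these 6 genes, 3 stood on intact lines of the deposited table (Ace, mAChR-A and mAChR-B), among 14476 intact gene lines in all. ChAT, VAChT and ChT stand on lines that hold a misplaced stretch of another table, so these 3 genes are not analysed here. The account therefore covers breakdown and muscarinic reception of acetylcholine, and no gene of its synthesis, vesicle loading or choline uptake.

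Brains came from 2 groups of flies. Both groups carried the ubiquitously active Actin-GAL4 driver, so the hairpins were expressed throughout the body and not in cholinergic neurons alone. The knockdown flies (2 libraries) carried UAS-sh-circMbl, a short hairpin against circMbl, the circular RNA made from the muscleblind gene. The control flies (5 libraries) carried UAS-sh8MM, the same kind of hairpin with 8 mismatches. All titles name day 3, and the labels give no sex, nor how many brains a library holds or whether libraries came from separate animals. A p-value here thus sets a difference against library-to-library spread, which may be no more than technical.

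Acetylcholine is the main fast excitatory transmitter of the insect central nervous system. It is made from acetyl-CoA and choline by choline acetyltransferase, packed into vesicles, released, and cleared from the cleft by acetylcholinesterase, whose product choline is taken up again. Nicotinic receptors are ion channels that open on binding it, whereas muscarinic receptors act more slowly through G proteins. In the fly the A-type receptor couples to Gq and calcium release, and the B-type receptor couples to the Gi/o class and lowers cyclic AMP. A-type receptors of mushroom body neurons are known for a part in aversive odour learning.

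The libraries are of the CEL-seq2 kind, adapted to bulk RNA, a method that reads the 3' end of polyadenylated transcripts. They held 3260649 to 3308580 counted reads in knockdown libraries and 3732675 to 5546121 in controls. The titles put both knockdown libraries on lane code L2 under a date code of their own, and the controls on L5 (replicates 2 and 3) and L7 (replicates 1, 4 and 5), so lane and date codes cannot be told apart from genotype. The host gene mbl held 2304 to 2770 normalized counts in knockdown libraries and 3323 to 4122 in controls. These 3' reads do not measure the circle and do not check its depletion. The labelled tissue was checked against its markers. All 6 neuronal and all 6 glial markers found on intact lines had reads, with summed levels of 43523 to 46585 normalized counts in knockdown libraries and 33956 to 38629 in controls for neurons, and 74827 to 81925 and 56628 to 71166 for glia. Without nSyb, a vesicle SNARE gene, the neuronal sum was 32331 to 34125 in knockdown libraries and 29722 to 33303 in controls, ranges that overlap. The glial sum was mostly 1 gene, Gs2, at 70907 and 77716 in knockdown replicates 1 and 2 and 52876 to 65812 in controls. The 6 glial markers did not move together, with 3 positive and 3 negative log2 differences and a median of -0.11. Of the fat body markers 7 of 8 were on intact lines, and of the muscle markers 7 of 7, none of them at 0 in every library. Markers of fat body summed to 44065 to 50224 in knockdown libraries and 14945 to 35929 in controls, and muscle markers to 1749 to 2019 and 2430 to 3418. The part of these tissues and cell types in the results below was not tested. A bulk sample cannot tell fewer cells of a type from less RNA per cell.

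Ace transcripts were about 1.22-fold as abundant in knockdown brains as in control brains, and mAChR-A transcripts about 0.727-fold. For these 2 genes no knockdown library lay within the range of the controls, while for mAChR-B the groups overlapped. In the test over all genes, 0 of the 3 genes passed (limma on log2(normalized count + 1), Benjamini-Hochberg adjusted p under 0.05 over the 7287 genes whose mean reached 10 normalized counts), where 6.11% of all genes tested passed, 3.47% higher and 2.63% lower. At an unadjusted limma p under 0.05 there were 2 of the 3, Ace and mAChR-A, against 25.5% of all genes, and 0 of the 3 passed by voom on the recovered reads. Groups without overlap were found in 32.4% of all genes tested, so that separation in 2 of 3 genes is by itself no result about them. The background itself rests on both knockdown libraries. The number of genes passing was 445 with all libraries, 1 without knockdown replicate 1, 1 without knockdown replicate 2, and 202, 663, 438, 177 and 133 without control replicates 1 to 5 in turn.

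Acetylcholinesterase hydrolyses acetylcholine in the synaptic cleft and ends its action. Its gene Ace (FBgn0000024) lies on 3R from 13222951 to 13259517, minus strand, in the BDGP6 annotation of the dm6 assembly. The annotation gives it 3 transcripts with 3 different 3' ends that span 5291 bases, and the table holds 1 value for them together. Ace held 3058 and 2931 normalized counts in knockdown replicates 1 and 2, against 2406, 2338, 2501, 2561 and 2502 in control replicates 1 to 5. Both knockdown libraries were above the highest control, and the controls lay close together whatever their lane code. The means were 2994 ± 90.3 (SD, n = 2) in knockdown brains and 2462 ± 88.8 (SD, n = 5) in control brains. The difference was 0.28 ± 0.11 (SE) on the log2 scale, with a 95% interval of 0.03 to 0.53, or 1.02-fold to 1.45-fold. It did not pass over all genes (limma, adjusted p = 0.15). An absolute difference at least this large was seen in 51.7% of all genes tested.

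Ace was the most deeply read of the 3 genes, with 2289 to 3093 reads per library. Its coefficient of variation was 3.61% among controls, where counting alone would give about 1.91%, and 3.02% between the knockdown libraries, where counting alone would give about 2.05%. In a fit of 3 groups (knockdown, L5 controls, L7 controls) Ace differed by 0.31 ± 0.09 (SE) from L5 controls and by 0.27 ± 0.08 from L7 controls, and passed against both (limma, adjusted p = 0.0376 and 0.0323). These comparisons share the knockdown libraries and 1 estimate of the spread. In a separate fit with L5 controls only, Ace did not pass (adjusted p = 0.115), and with L7 controls only it did (0.0321). Of all genes, 1082 passed in the separate fit with L5 controls only and 2408 in that with L7 controls only. In the fit of 3 groups 21.6% of all genes passed against L5 controls and 33.6% against L7 controls. Between L5 and L7 controls Ace differed by -0.04 ± 0.08 (limma, adjusted p = 0.746), where 28.2% of all genes passed. Ace was therefore called or not called according to how the controls were grouped, at nearly the same size of difference.

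The A-type muscarinic receptor gene mAChR-A (FBgn0000037) lies on 2R from 24378630 to 24390294, minus strand, with 2 annotated transcripts that share 1 end. That 3' end lies within CG13578, a gene on the opposite strand with a mean of 2.29 normalized counts over the 7 libraries. The strand setting of the counting is not given in the sources used here, so reads from the overlap could have gone to either gene. mAChR-A held 347.0 and 293.5 normalized counts in knockdown replicates 1 and 2, against 465.9, 382.3, 472.5, 465.5 and 416.5 in control replicates 1 to 5. Both knockdown libraries were below the lowest control, which was control replicate 2. The means were 320.3 ± 37.8 (SD, n = 2) in knockdown brains and 440.5 ± 39.5 (SD, n = 5) in control brains. The log2 difference was -0.46 ± 0.14 (SE), with a 95% interval of -0.78 to -0.14, and did not pass over all genes (limma, adjusted p = 0.0844). An absolute difference at least this large was seen in 29.9% of all genes tested. Without control replicate 2 the difference was -0.51 and passed (limma, adjusted p = 0.0492, within 0.00898 to 0.41 over the alternatives tried).

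The spread of mAChR-A exceeded counting error, with a coefficient of variation of 8.97% among controls and 11.8% between knockdown libraries, where counting alone would give about 4.51% and 6.28%. In the fit of 3 groups the difference was -0.41 ± 0.14 (SE) against L5 controls, which did not pass (limma, adjusted p = 0.0525), and -0.49 ± 0.12 against L7 controls, which passed (0.0112). L5 and L7 controls differed by -0.08 ± 0.12 (adjusted p = 0.674).

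The B-type muscarinic receptor gene mAChR-B (FBgn0037546) lies on 3R from 8059284 to 8087049, plus strand, with 2 annotated transcripts that share 1 end and no other annotated gene overlapping it. It held 265.1 and 204.6 normalized counts in knockdown replicates 1 and 2, against 210.0, 205.8, 219.4, 181.3 and 193.4 in control replicates 1 to 5. Knockdown replicate 1 was above every control and knockdown replicate 2 lay among them. The means were 234.9 ± 42.8 (SD, n = 2) in knockdown brains and 202.0 ± 14.9 (SD, n = 5) in control brains. The log2 difference was 0.21 ± 0.15 (SE), with a 95% interval of -0.13 to 0.55, and did not pass (limma, adjusted p = 0.428). It was 0.39 without knockdown replicate 2 and 0.02 without knockdown replicate 1, so its size rests on 1 library. The interval reaches from 0.913-fold to 1.46-fold, so a change within that range could not be told from none.

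With 162 to 270 reads per library, mAChR-B was the least deeply read of the 3 genes. Its coefficient of variation was 7.37% among controls, near the 6.64% that counting alone would give. Between the knockdown libraries it was 18.2%, against 7.33% from counting. In the fit of 3 groups mAChR-B differed by 0.13 ± 0.15 (SE) from L5 controls and 0.26 ± 0.14 from L7 controls, and passed against neither (limma, adjusted p = 0.566 and 0.167). The difference between L5 and L7 controls was 0.13 ± 0.14 (adjusted p = 0.52). None of the 3 genes thus differed between the lane codes of the controls in this test, nor at an unadjusted limma p under 0.05, which 0 of them reached.

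**Figure D1:**
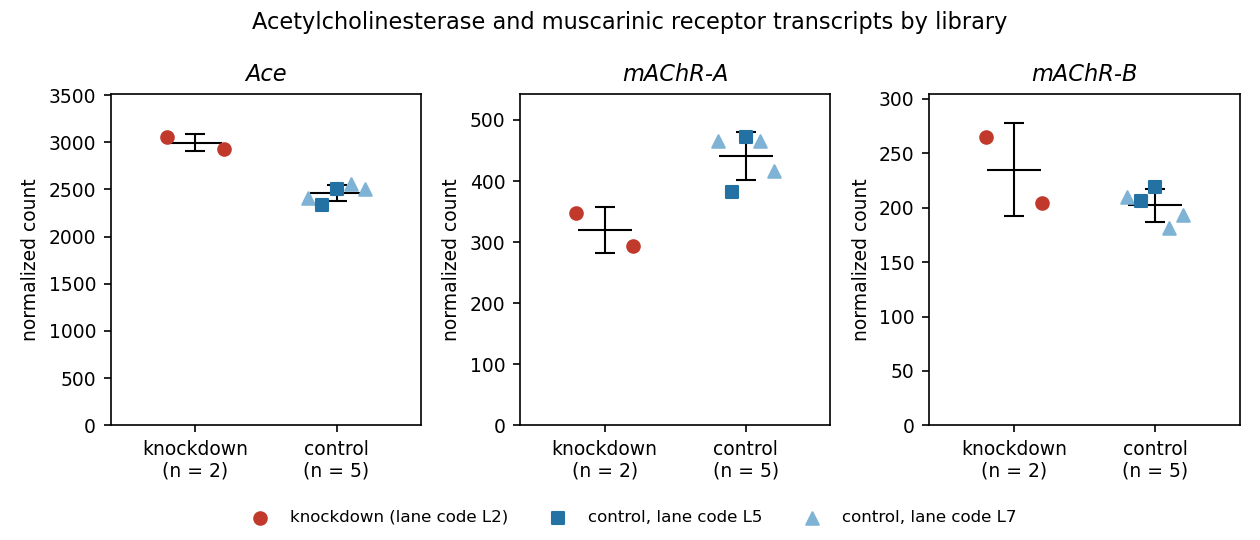
Normalized counts (vertical axes, from 0) of Ace, mAChR-A and mAChR-B in 2 knockdown and 5 control libraries. Points are libraries, marked by the lane code in their titles, and bars give the group mean ± SD. For Ace both knockdown libraries (3058 and 2931) lie above all controls, for mAChR-A both (347.0 and 293.5) lie below all controls, and for mAChR-B the groups overlap.

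Two-sided exact permutation tests over the 21 ways to pick 2 of 7 libraries gave p = 0.0952 for Ace, 0.0952 for mAChR-A and 0.381 for mAChR-B. The smallest p this test can give with 2 against 5 libraries is 0.0952, so it could not pass a threshold of 0.05 for any gene. It also takes the libraries as independent, which the labels do not show.

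**Figure D2:**
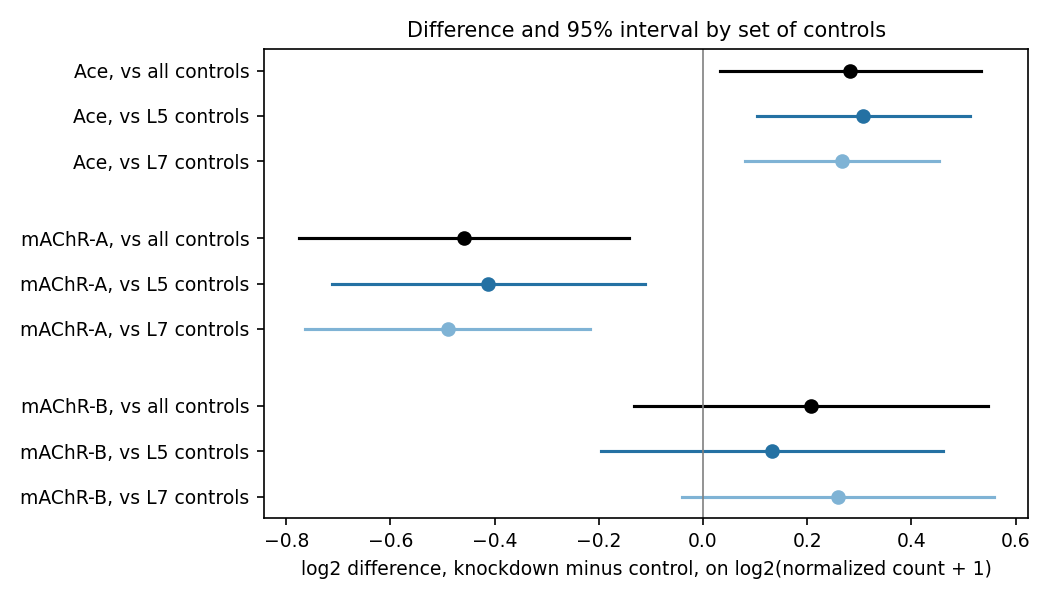
Log2 differences, knockdown minus control, of Ace, mAChR-A and mAChR-B against all 5 controls, and against L5 and L7 controls in the fit of 3 groups. Points are estimates on the log2(normalized count + 1) scale and lines are 95% intervals. The intervals of Ace lie above 0 and those of mAChR-A below 0 for each set of controls, before adjustment over genes, and those of mAChR-B include 0.

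Libraries also carry a number in their titles, which 2 controls of each lane code and both knockdown libraries share (2 and 3). mAChR-B was lower in the library numbered 3 than in that numbered 2 in 3 of 3 pairs: 204.6 and 265.1 normalized counts in knockdown libraries, 205.8 and 219.4 in L5 controls, and 181.3 and 193.4 in L7 controls. The 2 control pairs differed by only -0.092 and -0.093 on the log2 scale. Counting alone would give a coefficient of variation of about 6.64% per control library, so these pairs lay within counting error. How many of all genes were lower in all 3 pairs was not counted. For Ace and mAChR-A the library numbered 3 was lower in 2 of 3 pairs, the exception being the L7 controls (2561 and 2502 for Ace, 465.5 and 416.5 for mAChR-A). The labels do not say what the number stands for, nor whether controls with the same number on L5 and L7 come from the same RNA. If they do, the controls hold fewer independent samples than libraries, and the tests here do not allow for that. The summed level of the 6 photoreceptor markers found on intact lines was higher in number 3. It was 6518 normalized counts in number 3 and 2848 in number 2 of the knockdown libraries. The sums were 6457 and 3211 in L5 controls, and 6708 and 3113 in L7 controls. The part of these markers in the values of mAChR-B was not tested.

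The A-type and B-type receptors couple to different G proteins, and their transcripts lay on opposite sides of the control mean in knockdown brains. The ratio of mAChR-A to mAChR-B within each library was therefore compared, a measure chosen after the values were seen. Each value is a ratio of 3' read counts of different genes not divided by transcript length, so what is compared is its difference between groups. The ratio was 1.31 and 1.44 in knockdown replicates 1 and 2, against 2.22, 1.86, 2.15, 2.57 and 2.15 in control replicates 1 to 5. Both knockdown libraries were below every control. The mean log2 ratio was 0.45 ± 0.09 (SD, n = 2) in knockdown brains and 1.12 ± 0.17 (SD, n = 5) in control brains, a difference of -0.67 (two-sided exact permutation test, p = 0.0952, the smallest this design allows). Since mAChR-A alone kept the groups apart and the ratio was picked from these values, this p lends the difference no support. The difference lay between -0.75 and -0.54 over the alternatives tried.

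**Figure D3:**
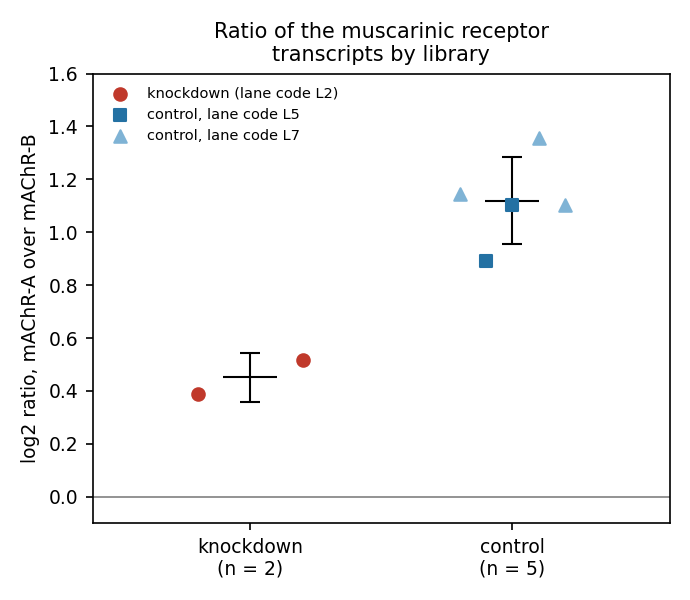
Log2 ratio of mAChR-A to mAChR-B normalized counts (vertical axis) in 2 knockdown and 5 control libraries. Points are libraries, marked by lane code, bars are the group mean ± SD, and the grey line marks equal counts. The knockdown libraries stand at 0.39 and 0.52 and the controls between 0.89 and 1.36.

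The C-type muscarinic receptor gene mAChR-C, the remaining fly muscarinic receptor, had 0 reads in each of the 7 libraries. A count of 0 allows up to 3 reads, or 3.65 to 3.90 normalized counts in knockdown libraries and 2.33 to 3.36 in control libraries. This limit covers counting error alone.

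The genes whose profile over the 7 libraries was most like each of the 3 genes were taken as those with the highest Pearson r on the log2(normalized count + 1) scale among 3212 candidates whose mean reached 50 normalized counts. The 7 points share library, lane code and genotype group, and a high r is easily reached as the best of so many. For Ace they were GstE1, a glutathione S-transferase gene (r = 0.994), DCTN5-p25, a dynactin subunit gene (r = 0.988), and dao (r = 0.988). GstE1 held 678.5 and 615.1 normalized counts in knockdown replicates 1 and 2, against 251.5 to 346.0 in controls. For dao the values were 878.6 and 838.0, against 719.9 to 754.1. For mAChR-A they were miple2, a midkine and pleiotrophin family gene (r = 0.989), beat-IIIa, a member of the beaten path family of immunoglobulin proteins (r = 0.968), and Nos, the nitric oxide synthase gene (r = 0.963). Nos held 149.5 and 103.5 normalized counts in knockdown replicates 1 and 2, against 195.7 to 271.4 in controls. All 3 had their lowest control value in control replicate 2, a pattern shared with mAChR-A that picking them by r favours. For mAChR-B they were tral, an RNA granule gene (r = 0.973), jef (r = 0.951) and cnc, the fly Nrf2 factor gene (r = 0.942). In these 3 genes knockdown replicate 1 was above every control and knockdown replicate 2 lay lower. They were picked by r to mAChR-B, so the shared pattern is no added evidence.

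Other genes of acetylcholine signalling and supply were taken from lists. Of 10 nicotinic receptor subunit genes, the ligand-gated channels that carry fast cholinergic transmission, 8 were tested and 0 passed by limma or by voom. Of these 8 genes, 2 reached an unadjusted limma p under 0.05, which 25.5% of all genes tested reached. The median log2 difference of the 8 was -0.15, against -0.02 over all genes tested. Of the 8, 6 were negative, as were 3783 of the 7287 genes tested. The smallest p was that of nAChRalpha5, with 3962 and 3766 normalized counts in knockdown replicates 1 and 2, against 2816, 1855, 2089, 3232 and 3307 in control replicates 1 to 5. Its log2 difference of 0.58 ± 0.24 (SE) did not pass (limma, adjusted p = 0.162). In the fit of 3 groups it passed against both, at 0.97 against L5 controls (adjusted p = 0.000368) and 0.31 against L7 controls (0.0343), while L5 and L7 controls also differed (0.000769).

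Muscarinic receptors act through G proteins, phospholipase C, inositol trisphosphate receptors and cyclic AMP. Of 14 such signalling genes 11 were tested and 0 passed by limma or by voom. Of these 11 genes, 2 reached an unadjusted limma p under 0.05, which 25.5% of all genes tested reached. The median log2 difference of the 11 was 0.23, with 8 of 11 positive, as were 3504 of the 7287 genes tested. The smallest p was that of rut, the calcium-activated adenylyl cyclase gene rutabaga, which held 486.1 and 389.8 normalized counts in knockdown replicates 1 and 2, against 322.0, 312.8, 285.0, 326.7 and 350.7 in controls. Both knockdown libraries were above all controls, and the log2 difference of 0.45 ± 0.14 (SE) did not pass (limma, adjusted p = 0.0895). In the fit of 3 groups rut passed against L5 controls (0.54, adjusted p = 0.0144) and against L7 controls (0.39, adjusted p = 0.0275). The alpha subunits to which the receptors couple gave 0.30 ± 0.15 for Galphaq (adjusted p = 0.25), 0.18 ± 0.15 for Galphao (0.505) and 0.28 ± 0.15 for Galphai (0.292). Of these Galphaq passed against L5 controls (0.50, adjusted p = 0.00427) and not against L7 controls (0.16, adjusted p = 0.161), and the lane codes differed (0.0124).

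Of 12 genes listed under acetyl-CoA and choline supply, 10 were tested. Whether each listed gene, CHKov2 among them, acts in the supply for acetylcholine was not tested. Of the 10 tested genes 2 passed and were lower, ATPCL and CHKov2, and 8 did not pass, where 2.63% of all genes tested passed and were lower. By voom 1 of the 10 passed, ATPCL, as did 281 of the 7287 genes tested. The median log2 difference of the 10 was -0.12. ATPCL, the ATP citrate lyase that makes cytosolic acetyl-CoA, held 2103 and 2208 normalized counts in knockdown replicates 1 and 2, against 5600, 3589, 4028, 5281 and 5092 in control replicates 1 to 5. Both knockdown libraries were far below every control, and L5 controls were below L7 controls. The log2 difference was -1.11 ± 0.19 (SE; limma, adjusted p = 0.0162). It was -0.82 against L5 controls and -1.30 against L7 controls, passing against both (adjusted p = 0.000574 and 1.12e-05). The log2 difference was -1.074 without knockdown replicate 1 and -1.145 without knockdown replicate 2. Each of these fits holds 1 knockdown library, so only the size is given and the call is not shown to survive them. With the title number as a block ATPCL did not pass (limma, adjusted p = 0.0696). CHKov2 held 59.8 and 68.2 normalized counts in knockdown replicates 1 and 2, against 197.6, 111.6, 108.3, 221.5 and 205.8 in controls, a log2 difference of -1.32 ± 0.31 (SE; limma, adjusted p = 0.0424). CHKov2 was called against each lane code too, at -0.78 for L5 and -1.69 for L7 controls (adjusted p = 0.00476 and 1.84e-05). It was not called without control replicate 1, 4 or 5 (0.0752, 0.0769 and 0.0925), or with the title number as a block (0.13). By voom on the recovered reads CHKov2 was not called either (adjusted p = 0.0564). Its log2 difference was -1.229 without knockdown replicate 1 and -1.416 without knockdown replicate 2, fits that again hold 1 knockdown library and give the size only. Both genes also differed between L5 and L7 controls (limma, adjusted p = 0.00299 for ATPCL and 0.000577 for CHKov2), unlike Ace and the muscarinic receptor genes, which did not pass there.

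**Figure D4:**
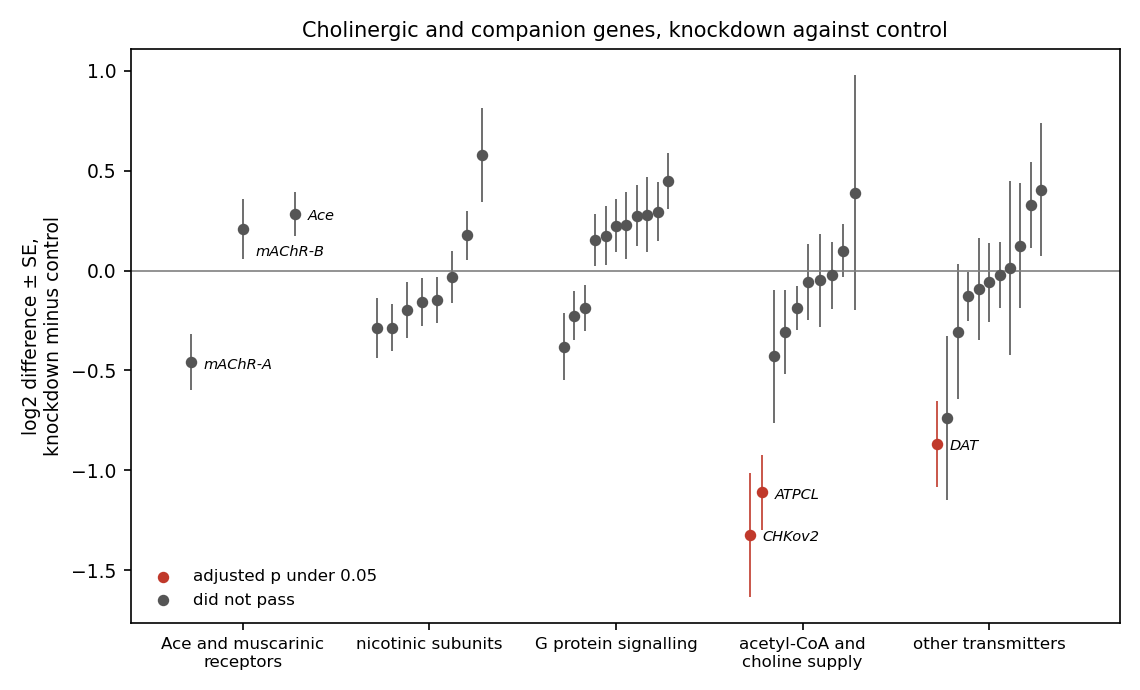
Log2 differences, knockdown minus control, for Ace and the muscarinic receptor genes, and for the tested genes of 4 lists (nicotinic receptor subunits, G protein signalling, acetyl-CoA and choline supply, markers of other transmitters). Each point is a gene with its SE, ordered by size within a list, and red marks an adjusted limma p under 0.05. ATPCL, CHKov2 and DAT are red, and Ace (0.28), mAChR-A (-0.46) and mAChR-B (0.21) are not.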

How the data were processed

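Per gene the deposited table gives normalized counts, a signal. The sources used here do not say how the authors normalized, counted or treated strand and molecular identifiers. The submitters' processing notes name STAR and dm6. Of the lines, 14476 intact ones were used. Left out were 2139 lines filled with parts of another table, 1 line whose name is damaged, and 402 columns that belong to no sample. Each value above 0 was a whole multiple of 1 step per library (100% within 0.001 of a read), and dividing by that step gave the reads.

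Columns were matched to samples by title, and groups come from the source names. Genes with a mean of at least 10 (7287) were tested on log2(value + 1), which understates changes of low genes, with limma 3.58.1 in R 4.3.3 (mean-variance trend, no covariates, Benjamini-Hochberg over all genes). Exact permutation tests used scipy 1.17.1. Alternatives changed the pseudocount, filter, scaling, controls, replicate block and model (voom on the reads). The limma step was tested on simulated data with independent libraries and no lane effect. That test therefore does not cover the lane and date codes of these libraries. Positions come from the Ensembl BDGP6 annotation. Named were the 6 genes, list genes past the test (or with the smallest p), and 3 most alike genes each. These members and lists were chosen with earlier results of these data known.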

Additional observations from a re-analysis of the deposited data

How the results depend on the processing

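Over 20 alternatives Ace, mAChR-A and mAChR-B kept their direction. The number of these genes that passed was 2 with L7 controls only and against the mean of lane codes (added later), 1 with same-titled controls averaged, and 0 to 1 with each library left out. For Ace the log2 differences that passed were 0.27 with L7 controls only and 0.29 against the mean of lane codes, and for mAChR-A -0.49 and -0.45 in the same fits, -0.47 with same-titled controls averaged and -0.51 without control replicate 2. With L5 controls only 0 of the 3 passed (Ace 0.31, adjusted p = 0.115, and mAChR-A -0.41, 0.0986). Leaving out each library gave 0.25 to 0.31 for Ace, -0.58 to -0.34 for mAChR-A and 0.02 to 0.39 for mAChR-B. All genes passing were 445, against 1082 and 2408 with L5 or L7 controls only, 2019 against the mean of lane codes, 1158 with same-titled controls averaged, 281 by voom, and 1 to 663 with each library left out. The nicotinic, G protein, supply and transmitter lists had 8, 11, 10 and 11 tested genes. Of these 3 passed, against 9, 11 and 13 with L5 controls, L7 controls or the mean of lane codes. With each control library left out 1 to 3 passed. That range leaves out the fits with 1 knockdown library, so the calls are not shown to survive the loss of either. Each count is to be read beside the number of all genes passing in the same fit. The cause of these shifts was not tested.

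With the title number as a replicate block 0 of the 3 genes, 51 of all genes and 0 list genes passed, with log2 differences of 0.27 for Ace, -0.44 for mAChR-A and 0.22 for mAChR-B. With the source name number as a replicate block 136 of all genes passed. The numbers were not taken as pairs of knockdown and control libraries, which share 2 of them. The difference of title number 3 and 2 across 5082 genes had r = 0.183 between knockdown libraries and L5 controls, -0.0268 between knockdown libraries and L7 controls, and 0.422 between L5 and L7 controls. Planned fits by other count models and scalings and the ratio of VAChT to ChAT were not run, since the damaged lines kept the reads of the whole file from being checked and hold both genes. Depth limits mAChR-B most, at 162 to 270 reads per library.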

Other observations

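Of 12 marker genes of other transmitters, 11 were tested and 1 passed and was lower, where 2.63% of all genes tested passed and were lower. It was the dopamine transporter gene DAT, which clears dopamine from the cleft. The other 10 did not pass, and by voom 1 passed, as did 281 of the 7287 genes tested. DAT held 322.3 and 321.6 normalized counts in knockdown replicates 1 and 2, against 738.9, 467.4, 447.0, 671.3 and 677.4 in control replicates 1 to 5. Its log2 difference was -0.87 ± 0.22 (SE; limma, adjusted p = 0.0495). It was -0.868 without knockdown replicate 1 and -0.865 without knockdown replicate 2. Each of these fits holds 1 knockdown library, so only the size is given and the call is not shown to survive them. The call ended without control replicate 1, 4 or 5 (limma, adjusted p = 0.0812, 0.0938 and 0.107). It also ended with the title number (0.14) or the source name number (0.0775) as a block, and with no filter on low values (0.0592). In the fit of 3 groups DAT passed against both lane codes, at -0.50 against L5 controls and -1.11 against L7 controls (adjusted p = 0.00691 and 2.65e-05), and the lane codes differed (0.000837). The median log2 difference of the list was -0.06. Among the transmitter markers that did not pass were those of GABA neurons, Gad1 with 0.41 ± 0.33 and VGAT with -0.02 ± 0.16 (limma, adjusted p = 0.488 and 0.947). The value of Gad1 joins 0.98 against L5 controls, which passed (adjusted p = 0.0017), with 0.02 against L7 controls, which did not (0.933), and the lane codes differed (0.000564).

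Transcription factor genes known from fly cholinergic neurons gave 0 of 3 past the test by limma and 0 by voom. Where 25.5% of all genes tested reached an unadjusted limma p under 0.05, 1 of these 3 genes did. They were acj6 (0.07 ± 0.18), unc-4 (0.03 ± 0.37) and ap (-0.46 ± 0.17, limma, adjusted p = 0.139). The factor gene ap held 122.2 and 88.9 normalized counts in knockdown replicates 1 and 2, against 154.8, 127.1, 160.2, 133.1 and 144.0 in control replicates 1 to 5, so the groups did not overlap. Their summed level was 560.3 to 718.8 in knockdown libraries and 543.3 to 753.2 in controls, ranges that overlap.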
